A study of Saccharomyces cerevisiae with 12 samples.

Results

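ITS1 is the internal transcribed spacer between the 18S and 5.8S rRNA genes of the yeast 35S gene. It was taken as every position between the last base of 18S and the first base of 5.8S, which gave 361 of the 6858 positions measured on the gene, and its nucleotides are numbered here from 1 to 361 in the direction of transcription. In assembly R64-1-1 it lies at XII:464709-465069 on the minus strand. Native elongating transcript sequencing (NET-seq) mapped the 3′ ends of RNAs that co-purified with RNA polymerase I (Pol I), in cultures given BMH-21 for 2 min or 16 min and in cultures given the vehicle, a phosphate buffer, for the same times. There were 3 libraries per treatment and time, 12 in all. Every library came from the same haploid strain, which carries HA and His tags on the Pol I subunit Rpa135, a chromosomal deletion of rpa190 covered by a plasmid copy of RPA190, and auxotrophic alleles of ADE2, URA3, TRP1, LEU2 and HIS3 with a can1 mutation. By the labels the groups differed in agent and time, and the strain stands for a single engineered background. The authors repeated NET-seq for the 16 min treatment, so time and experiment cannot be told apart.

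Pol I transcribes the 18S, 5.8S and 25S rRNAs as a single precursor, and ITS1 separates the RNA of the small ribosomal subunit from those of the large subunit. Cleavage at site A2 inside ITS1 splits the precursor into the 20S pre-rRNA, which matures to 18S rRNA, and a precursor of the large subunit. In growing yeast much of this cleavage happens while Pol I is still transcribing, and the spacer pieces are later removed by nucleases. BMH-21 is a small molecule that intercalates into GC-rich DNA and inhibits Pol I.

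Each value is in RPM, for which a library's reads are scaled to a fixed total over the 35S gene, so that fewer reads in ITS1 and more reads elsewhere in the gene cannot be told apart. The gene regions also hold mature rRNA that co-purifies with Pol I, and how far that share moved was not tested. The assay likewise reads an RNA 3′ end made by cleavage, as at A2, in the same way as an end held by transcribing Pol I, and the 2 kinds cannot be told apart. Libraries held 1054374 to 10480384 reads on the 35S gene. Reads in ITS1 numbered 14782, 7248 and 3788 in the BMH-21-treated libraries at 2 min, against 19186, 48105 and 31408 in the vehicle-treated libraries. At 16 min they numbered 3797, 5484 and 1852 with BMH-21, against 57948, 12233 and 8516 with vehicle. The BMH-21-treated libraries at 16 min had no read at 84 to 115 of the 361 positions, as did vehicle replicate 2 at 55 positions, so single positions are least certain there. Nucleotide 1, the first base of ITS1, had 0 reads in all 12 libraries.

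The sequences below are those that the results turn on, written as RNA from 5′ to 3′ as in the transcript. The set begins with the bases around A2, which lies between XII:464858 and XII:464857, with the last base before and the first base after the cut in capitals.

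A2 (XII:464838-464877, minus strand): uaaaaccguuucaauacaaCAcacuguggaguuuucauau

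The stretch that kept most of its signal at 2 min contains GCGC at 2 places, shown in capitals, with uuaagu between them.

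GCGC stretch (XII:464940-464979, minus strand): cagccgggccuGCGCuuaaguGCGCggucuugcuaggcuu

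The next 8 sequences are centred on the occupancy peaks, and the capital marks the last base of the transcripts that end there.

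Nucleotide 46 (XII:465004-465044, minus strand): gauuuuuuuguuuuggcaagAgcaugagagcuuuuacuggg

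Nucleotide 71 (XII:464979-465019, minus strand): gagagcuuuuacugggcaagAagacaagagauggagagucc

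Nucleotide 105 (XII:464945-464985, minus strand): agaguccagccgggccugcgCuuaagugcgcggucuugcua

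Nucleotide 117 (XII:464933-464973, minus strand): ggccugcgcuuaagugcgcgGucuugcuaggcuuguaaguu

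Nucleotide 159 (XII:464891-464931, minus strand): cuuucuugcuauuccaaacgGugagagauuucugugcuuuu

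Nucleotide 210 (XII:464840-464880, minus strand): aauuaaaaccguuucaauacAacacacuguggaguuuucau

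Nucleotide 260 (XII:464790-464830, minus strand): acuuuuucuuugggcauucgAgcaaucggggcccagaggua

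Nucleotide 276 (XII:464774-464814, minus strand): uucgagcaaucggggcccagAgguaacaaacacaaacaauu

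ITS1 as a whole is 30.5% A, 15.8% C, 20.2% G and 33.5% U. The part before A2 (XII:464858-465069) is 24.1% G, and the part after A2, of 149 positions (XII:464709-464857), is 14.8% G. Of the 8 peaks, 7 follow a G, a base found before 20.2% of the ITS1 positions, and the exception is 210 beside A2. The peaks at 46 and 71 both end in ggcaagA.

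ITS1 took a smaller share of the 35S signal with BMH-21 than with vehicle at both times. At 2 min ITS1 took 0.484%, 0.211% and 0.323% of the 35S signal in the BMH-21-treated libraries, against 0.804%, 0.901% and 0.893% in the vehicle-treated libraries. After 16 min it took 0.134%, 0.104% and 0.176% with BMH-21, against 0.553%, 0.562% and 0.654% with vehicle. The groups did not overlap at either time, and the BMH-21 libraries at 2 min spread more widely than any other group. The mean was 0.339% ± 0.137 with BMH-21 and 0.866% ± 0.054 with vehicle at 2 min, and 0.138% ± 0.036 with BMH-21 and 0.590% ± 0.056 with vehicle at 16 min (SD, n = 3 each). Thus 39.2% of the vehicle share was left at 2 min and 23.4% at 16 min. Over both times the mean log2 difference was -1.78 (exact permutation test over libraries, two-sided, p = 0.005, the smallest it allows, and 0.0183 after Benjamini-Hochberg adjustment over 11 measures). Within a time, 3 libraries against 3 cannot give a p below 0.1, and both times gave 0.1.

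**Figure D1:**
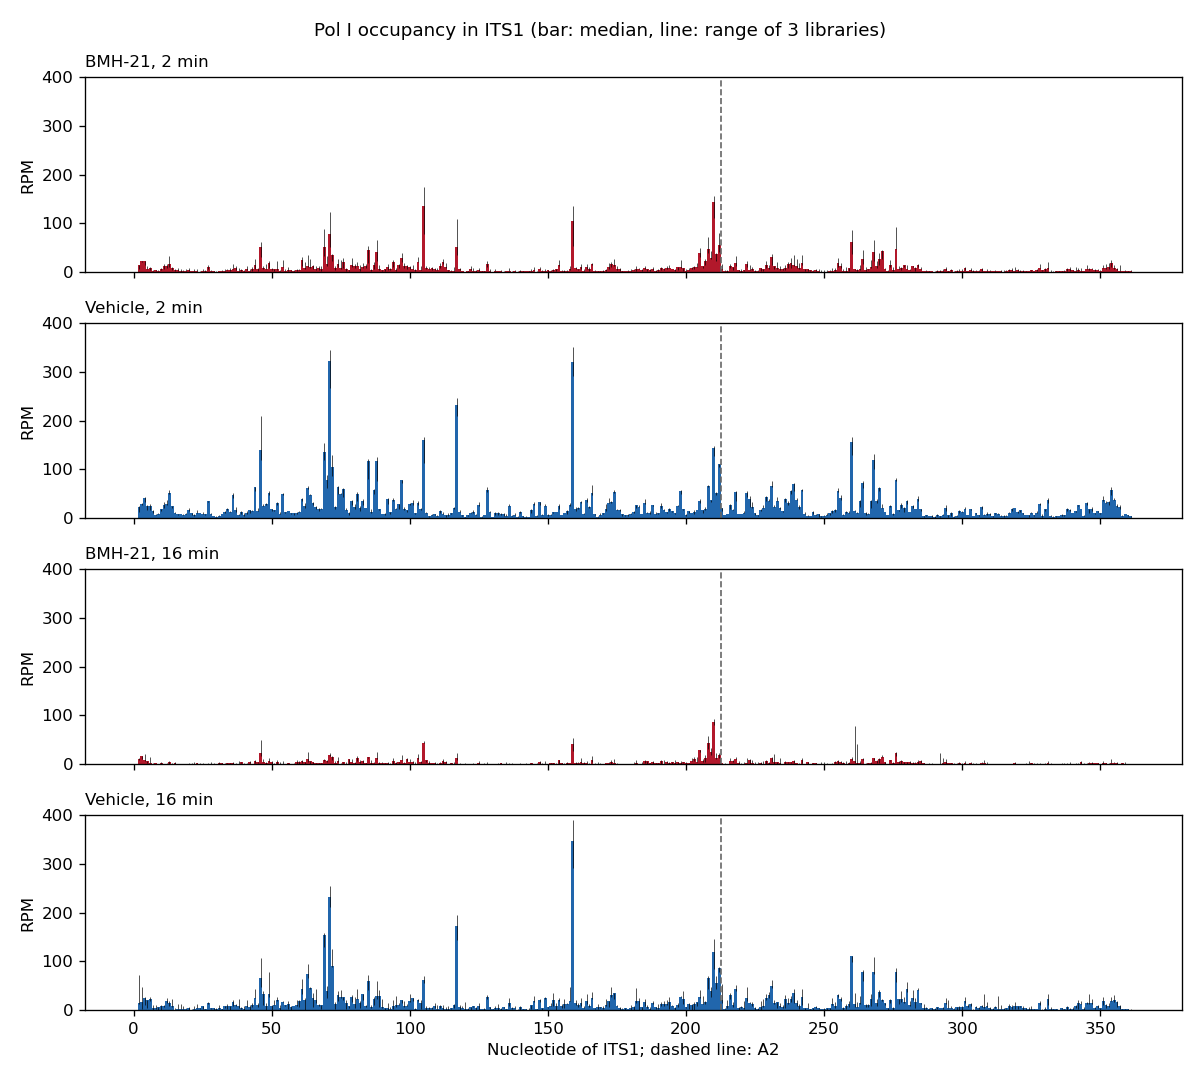
Pol I occupancy (RPM, vertical axis) at each position of ITS1 (horizontal axis, nucleotide of ITS1) for BMH-21 and vehicle at 2 min and then at 16 min; bars are the median of 3 libraries, thin lines their range, and the dashed line is A2. The tall vehicle bars at 71, 117 and 159 are short with BMH-21 at both times, whereas the bar at 210 stands at 144 RPM in both treatments at 2 min.

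The fall was spread over single positions, and few went the other way. At 2 min limma on log2(RPM + 1) called 259 of 359 tested ITS1 positions lower and 3 higher (adjusted p under 0.05, Benjamini-Hochberg over the whole gene). Over the 35S gene the same test called 23.4% of positions lower and 3.56% higher. The test called 136 of 346 positions lower and 0 higher at 16 min, against 11.7% lower and 0.104% higher over the gene. At an unadjusted p under 0.05 the ITS1 counts were 312 lower and 4 higher at 2 min, and 221 lower and 0 higher at 16 min. Over the gene they were 2294 lower and 449 higher of 6746 at 2 min, and 1303 lower and 164 higher of 6707 at 16 min. The median log2 fold change was -1.46 in ITS1 and -0.26 over the gene at 2 min, and -1.81 and -0.06 at 16 min. With edgeR on the recovered reads, 230 ITS1 positions were lower and 2 higher at 2 min, and 73 were lower and 0 higher at 16 min (184 and 0 at its unadjusted p under 0.05). The edgeR counts over the gene are not given here.

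The calls at 2 min rest on the full set of vehicle libraries. Without vehicle replicate 2 or without vehicle replicate 3, 0 positions of ITS1 passed the limma threshold at 2 min in the lower direction, though 280 and 285 had an unadjusted p under 0.05. Without vehicle replicate 1 there were 102, and without BMH-21 replicate 3 there were 136. No position was called higher in any of these 4 settings. At 16 min leaving out vehicle replicate 1 or 3 left 88 and 85 of the 136 lower positions by count. Libraries that do not overlap give a count that needs no model. All 3 BMH-21-treated libraries lay below all 3 vehicle-treated libraries at 294 of 359 positions at 2 min (37.8% over the gene) and at 202 of 346 at 16 min (21% over the gene). They lay above at 3 positions at 2 min (10.5% over the gene) and at 0 at 16 min (7.08% over the gene).

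**Figure D2:**
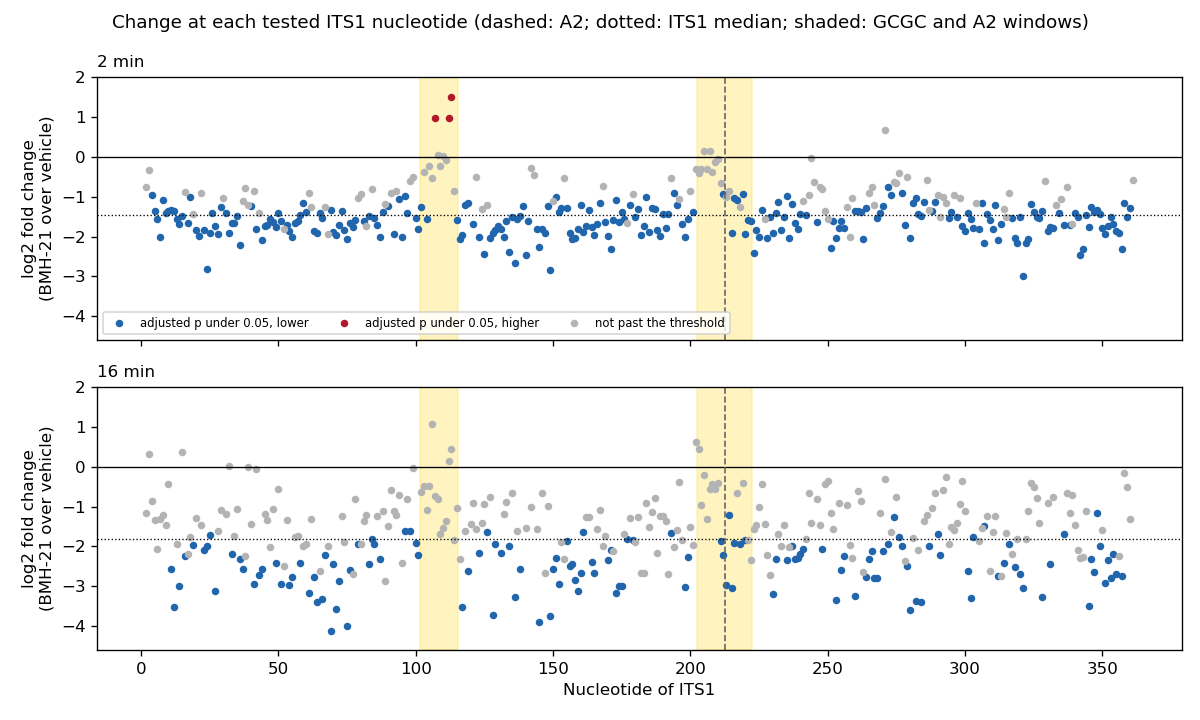
Log2 fold change of BMH-21 over vehicle on the log2(RPM + 1) scale at each tested ITS1 position (horizontal axis, nucleotide of ITS1), at 2 min above and 16 min below; blue points were called lower, red points higher and grey points neither, the dotted line is the ITS1 median, and the shaded bands are the GCGC window and the A2 window. At 2 min 5 of the 8 points at 0 or above lie in the GCGC band, the 3 red points among them, and 2 lie in the A2 band, whereas nucleotide 215 in the A2 band is at -3.04 at 16 min. The GCGC band was drawn after its values were seen.

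The parts before and after A2 both lost signal. Before A2, 151 of 210 tested positions were lower and 3 higher at 2 min, and after A2, 108 of 149 were lower and 0 higher (1 higher at an unadjusted limma p under 0.05). At 16 min the counts were 76 of 204 lower before A2 and 60 of 142 lower after it. The part before A2 kept 40.1% of its vehicle share at 2 min and 24.1% at 16 min, and the part after A2 kept 37.3% and 21.9%. The log2 ratio of the signal after A2 to that before it averaged -1.10 ± 0.08 with BMH-21 and -0.97 ± 0.01 with vehicle at 2 min (SD, n = 3 each). The ratio at 16 min averaged -1.17 ± 0.22 with BMH-21 and -1.004 ± 0.083 with vehicle. The difference over both times was -0.14 (exact permutation test, p = 0.045), which did not hold after adjustment over the 11 measures (0.0707). It also turned to 0.07 (exact p = 0.305) without the 20 positions around A2, and to 0.26 (exact p = 0.005) with the boundary placed 5 bases earlier. The sign of the difference thus changed with how the bases beside the cut were counted.

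The bases around A2 kept more of their signal than ITS1 as a whole. The A2 window, nucleotides 203 to 222 (XII:464848-464867), took 12.6%, 17.04% and 15.2% of the ITS1 signal in the BMH-21-treated libraries at 2 min, against 7.95%, 8.16% and 7.87% in the vehicle-treated libraries. The window took 20.1%, 26.5% and 18.5% with BMH-21 at 16 min, against 10.7%, 12.5% and 8.74% with vehicle. All BMH-21-treated libraries lay above all vehicle-treated libraries at both times. The difference averaged 9.01 percentage points over both times (exact permutation test, p = 0.005, adjusted 0.0183), and between 7.80 and 9.81 points with any single library left out. As a share of the 35S signal the window still fell, to 0.0486% ± 0.0125 with BMH-21 against 0.0692% ± 0.0049 with vehicle at 2 min, and to 0.029% ± 0.003 with BMH-21 against 0.0623% ± 0.007 with vehicle at 16 min (SD, n = 3 each). It kept 70.2% of its vehicle share at 2 min and 46.6% at 16 min.

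Within the window most of the signal lay on the 18S side of the cut. Nucleotide 210, the highest peak of ITS1 with BMH-21 at both times, had 156, 110.2 and 144 RPM in BMH-21-treated libraries at 2 min, against 144, 148 and 128 RPM with vehicle. After 16 min there were 91.9, 79.5 and 85.4 RPM with BMH-21, against 119, 146 and 85.3 RPM with vehicle. The groups overlapped at both times, and the log2 fold changes of -0.05 ± 0.17 (SE, limma adjusted p = 0.856) and -0.41 ± 0.23 (adjusted p = 0.39) did not pass the threshold. The last base before the cut had 79.8, 41.3 and 55.5 RPM with BMH-21 at 2 min, against 106, 111 and 111 RPM with vehicle. Its values at 16 min were 12.7, 22.8 and 18.02 RPM with BMH-21, against 86.7, 78.0 and 88.4 RPM with vehicle. It was lower at both times without overlap (log2 fold change -0.93 ± 0.24, limma adjusted p = 0.0294, and -2.21 ± 0.24, adjusted p = 0.00222). The call at 2 min was lost without vehicle replicate 1, 2 or 3 or BMH-21 replicate 3 (limma adjusted p 0.0881 to 0.107), with median ratio scaling (0.1) and with the replicate block (0.0721). Scaling to the ITS1 sum lost the call at both times (limma adjusted p = 0.233 at 2 min and 0.714 at 16 min).

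Nucleotide 211, between these, had a log2 fold change of -0.65 (limma adjusted p = 0.0787) at 2 min and of -1.85 (adjusted p = 0.013) at 16 min, where the adjusted p was 0.0555 without vehicle replicate 1. At 16 min nucleotide 213 had a log2 fold change of -2.96 (limma adjusted p = 0.00825), nucleotide 214 of -1.21 (0.00648) and nucleotide 215 of -3.04 (0.00913). Nucleotide 214 rested on 3, 4 and 1 reads with BMH-21 against 43, 7 and 4 with vehicle, and edgeR gave it an adjusted p of 0.38. At 2 min only 215 of these 3 passed the limma threshold (log2 fold change -1.92, adjusted p = 0.0184, and 0.0632 to 0.0756 without vehicle replicate 1, 2 or 3 or BMH-21 replicate 3), with 213 at 0.0874 and 214 at 0.0529. On the 18S side the nucleotides 205 and 208 had log2 fold changes of 0.14 and -0.38 at 2 min and of -0.20 and -0.44 at 16 min, with limma adjusted p of 0.603, 0.252, 0.702 and 0.475. A change at these positions that falls inside the spread between libraries was not detectable here.

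The order of the highest peaks by median differed between the treatments, and at 16 min so did most of their places, with no test run on either. With vehicle the 5 highest peaks by median were 71, 159, 117, 105 and 260 at 2 min, and 159, 71, 117, 210 and 260 at 16 min. With BMH-21 they were 210, 105, 159, 71 and 260 at 2 min, and 210, 105, 159, 276 and 46 at 16 min. The places of 276 and 46 rest on close medians of 23.3 and 22.3 RPM. In BMH-21 replicate 3 of 16 min nucleotide 276 had 17 reads and nucleotide 71 had 20. The peak at 117 was thus among the 5 highest with vehicle at both times and with BMH-21 at neither time. The highest peak stood 31-fold above the median ITS1 position with BMH-21 and 22.4-fold with vehicle at 2 min, and 60.4-fold with BMH-21 and 41.1-fold with vehicle at 16 min. The 60.4-fold value divides by a median position of 1.41 RPM, near the floor, as 1 read was worth up to 0.949 RPM there. The 10 strongest positions of each library took 24.5% ± 1.75 of the ITS1 signal with BMH-21 and 21.1% ± 0.128 with vehicle at 2 min, and 28.7% ± 3.22 with BMH-21 and 25.3% ± 1.46 with vehicle at 16 min (SD, n = 3 each). The difference over both times was 3.37 points (exact permutation test, p = 0.01, adjusted 0.0275), and it was -0.038 points (exact p = 0.965) without the A2 window. The 10 positions were picked in each library on its own. Every BMH-21 library held fewer ITS1 reads than every vehicle library of its time, and whether depth played a part in the difference was not tested.

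The tall vehicle peaks fell several-fold. Nucleotide 71 had 123, 52.0 and 78.5 RPM in BMH-21-treated libraries at 2 min, against 266, 323 and 346 RPM with vehicle. The values at 16 min were 21.9, 16.1 and 18.97 RPM with BMH-21, against 233, 213 and 255 RPM with vehicle. No library of either treatment crossed over at either time (log2 fold change -1.95 ± 0.30, limma adjusted p = 0.0104, and -3.56 ± 0.18, adjusted p = 0.000595). Nucleotide 159 had 134, 53.8 and 104 RPM with BMH-21 at 2 min, against 292, 351 and 321 RPM with vehicle. Those at 16 min were 40.6, 25.8 and 54.1 RPM with BMH-21, against 291, 347 and 390.4 RPM with vehicle. Its log2 fold changes were -1.80 (limma adjusted p = 0.0125) and -3.11 (adjusted p = 0.00159). Nucleotide 117, 2 bases after the GCGC nearer 5.8S, had log2 fold changes of -1.96 (limma adjusted p = 0.0152) and -3.53 (adjusted p = 0.00169), and 260 had -1.35 (adjusted p = 0.0215) and -3.25 (adjusted p = 0.00083). At 16 min these 4 calls held in every setting run, and at 2 min none passed without vehicle replicate 2 or 3. None passed at 2 min with scaling to the ITS1 sum either. There the log2 fold changes at 71, 159, 117 and 260 were -0.53, -0.38, -0.54 and 0.07 (limma adjusted p = 0.194, 0.35, 0.19 and 0.876). The calls at 117 and 260 at 2 min were also lost without vehicle replicate 1 (limma adjusted p = 0.0563 and 0.0618) or BMH-21 replicate 3 (0.0544 and 0.0615), and that at 260 with median ratio scaling (0.0577) and the replicate block (0.0677).

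Peaks at 105, 276 and 46 were called lower at 1 time or at neither. Nucleotide 105, the fourth base of the GCGC that comes earlier in the transcript, had 175, 78.5 and 136 RPM with BMH-21 at 2 min, against 113, 166 and 160.5 RPM with vehicle. At 16 min the values were 46.3, 43.4 and 43.6 RPM with BMH-21, against 55.8, 70.7 and 62.2 RPM with vehicle. The groups overlapped at 2 min and did not at 16 min, and neither change passed the threshold (log2 fold change -0.23, limma adjusted p = 0.605, and -0.49, adjusted p = 0.14). Nucleotide 276 had a log2 fold change of -0.41 at 2 min (limma adjusted p = 0.303) and was lower at 16 min, with 24.7, 23.3 and 16.1 RPM in BMH-21-treated libraries against 78.6, 85.8 and 58.4 RPM with vehicle (log2 fold change -1.75, adjusted p = 0.0056). Nucleotide 46 was lower at 2 min (log2 fold change -1.70, limma adjusted p = 0.0124; no call without vehicle replicate 2 or 3). At 16 min its log2 fold change was -1.33 with an adjusted p of 0.148, and BMH-21 replicate 3 stood at 50.3 RPM beside 22.3 and 17.4 RPM in the other BMH-21 libraries. Without that library it passed (adjusted p = 0.0409).

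**Figure D3:**
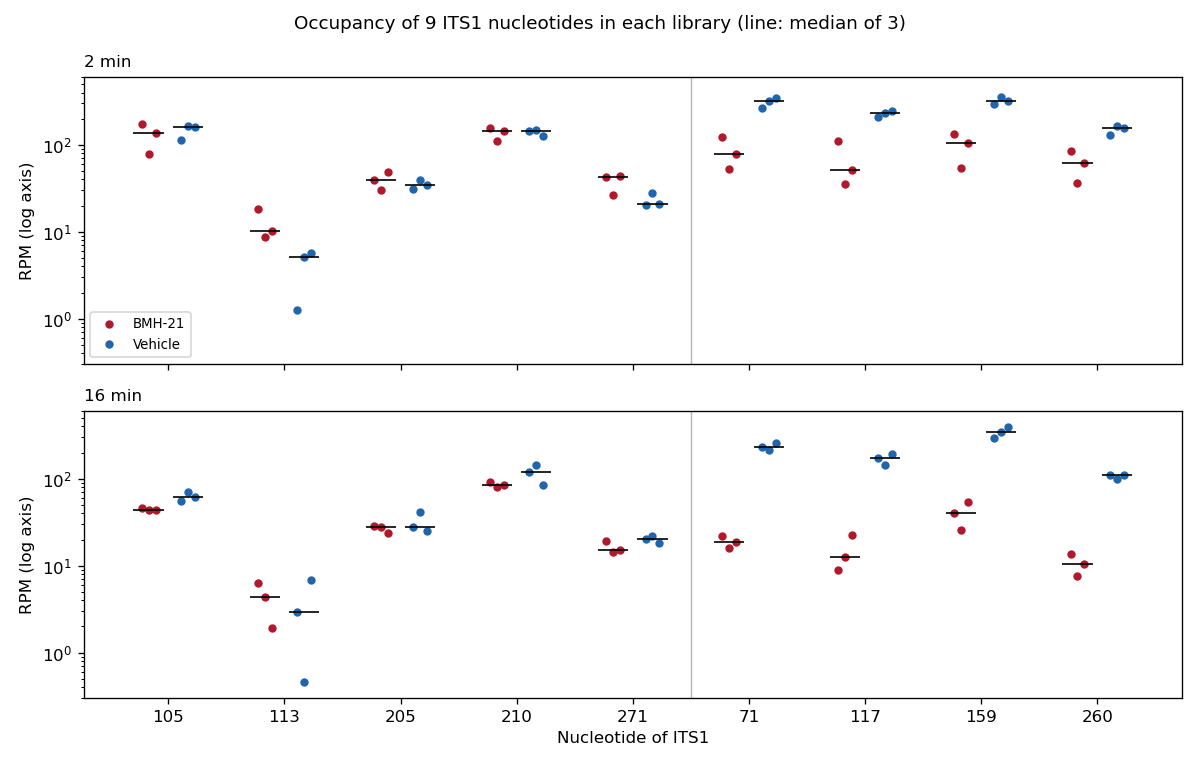
RPM (logarithmic axis) of 9 ITS1 positions in each BMH-21-treated and vehicle-treated library at 2 min above and 16 min below, with lines at the median of 3; positions near or above their vehicle level at 2 min are on the left and tall vehicle peaks on the right. At 16 min the 3 BMH-21 points at 71 lie between 16.1 and 21.9 RPM and the vehicle points between 213 and 255 RPM, whereas the points at 205 overlap.

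The positions called higher at 2 min lay together in the GCGC stretch. Nucleotide 113, the second base of the GCGC nearer 5.8S, had 18.3, 8.72 and 10.2 RPM with BMH-21, against 1.26, 5.06 and 5.69 RPM with vehicle (log2 fold change 1.51 ± 0.46, limma adjusted p = 0.0489). These are 56, 30 and 12 reads with BMH-21 against 3, 27 and 20 with vehicle. Nucleotide 112 had 27.2, 15.4 and 19.6 RPM with BMH-21, against 8.80, 12.2 and 8.54 RPM with vehicle (log2 fold change 0.98 ± 0.24, adjusted p = 0.025). Nucleotide 107 had 9.82, 5.81 and 5.97 RPM with BMH-21, against 3.35, 3.75 and 2.28 RPM with vehicle (log2 fold change 0.98 ± 0.24, adjusted p = 0.0256). In all of them the BMH-21-treated libraries lay above every vehicle-treated library, at levels well under those of the peaks. The calls are weak ones. None of the 3 passed without vehicle replicate 1, 2 or 3 or without BMH-21 replicate 3 (adjusted p 0.059 to 0.103). Nucleotide 113 also missed without BMH-21 replicate 1 (limma adjusted p = 0.0788), with scaling to the gene regions (0.0533) and with median ratio scaling (0.0516), and 107 missed with edgeR (0.0581). At 16 min their log2 fold changes were 0.44, 0.14 and -0.74, with limma adjusted p of 0.776, 0.967 and 0.592, and vehicle replicate 2 and BMH-21 replicate 2 had 0 reads at 112.

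The GCGC window, nucleotides 102 to 115 (XII:464955-464968), was drawn after its values were seen and is given as a description with no test. It took 7.03%, 7.80% and 7.50% of the ITS1 signal in BMH-21-treated libraries at 2 min, against 2.91%, 3.38% and 3.41% in vehicle-treated libraries. The shares at 16 min were 7.35%, 8.32% and 5.62% with BMH-21, against 2.53%, 2.55% and 2.54% with vehicle. As a share of the 35S signal it kept 88.5% of its vehicle level at 2 min and 63.1% at 16 min. Of its 14 positions, 3 were lower and 3 higher at 2 min and 0 were called at 16 min (5 lower at an unadjusted limma p under 0.05). The motif GCGC reads the same on both strands. It occurs 2 times in ITS1, at 102 and 112, and 15 times in the 35S gene. Of all stretches of 14 bases in the gene, 0.278% hold it 2 times, and of all stretches of 361 bases, 25.8% hold it at least 2 times. A match describes the letters and no more.

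**Figure D4:**
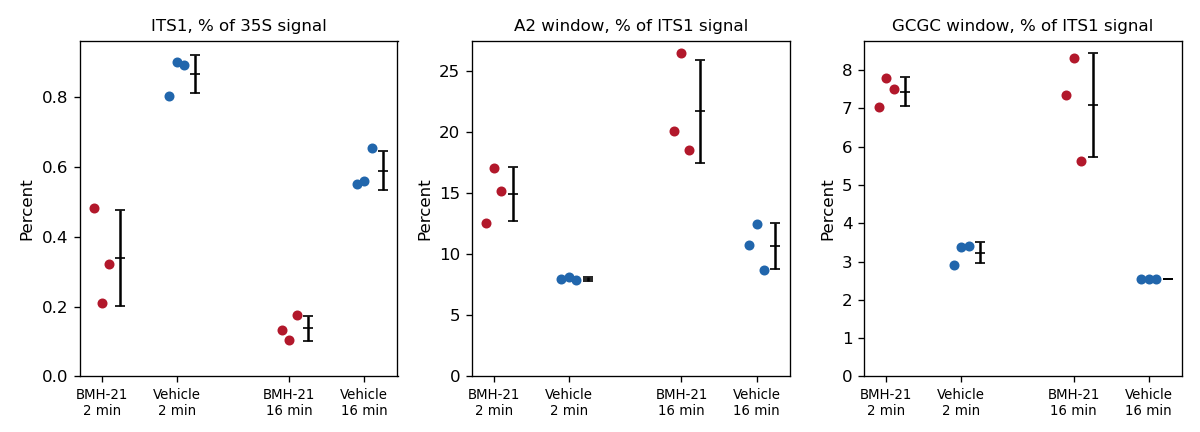
Percent of the 35S signal in ITS1 (left) and percent of the ITS1 signal in the A2 window (middle) and in the GCGC window (right) for each BMH-21-treated and vehicle-treated library at 2 and 16 min; bars are the mean and SD of 3 libraries. BMH-21 libraries sit below all vehicle libraries in the left panel and above them in the other panels.

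Few positions held or gained signal. At 2 min 8 of the 359 tested positions had a log2 fold change of 0 or above, namely 107, 108, 110, 112, 113, 205, 207 and 271, against 1737 of 6746 over the gene. Of these, 5 lay in the GCGC window, which was drawn after its values were seen, 2 in the A2 window and 1, at 271, after A2. At 16 min 9 of 346 did, namely 3, 15, 32, 39, 106, 112, 113, 202 and 203, against 2920 of 6707 over the gene, and none of the 9 lay after A2. Only 112 and 113 were in both sets, which is 25% of the set at 2 min and 22.2% of that at 16 min. Nucleotide 271 had 42.5, 26.2 and 44.4 RPM with BMH-21 at 2 min, against 20.1, 27.7 and 21.1 RPM with vehicle, with a log2 fold change of 0.67 (limma adjusted p = 0.0785). At 16 min the libraries had 19.4, 14.4 and 15.2 RPM with BMH-21, against 20.04, 22.0 and 18.4 RPM with vehicle (log2 fold change -0.30, adjusted p = 0.442). It is the C that follows gggg in the sequences shown around 260 and 276. The set at 16 min was faint, with a median vehicle level of 4.5 RPM against 9.66 RPM over all tested positions.

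The positions that lost signal were 259 at 2 min and 136 at 16 min, and 104 were in both sets, 40.2% of the set at 2 min and 76.5% of that at 16 min. Of those at 2 min, 151 lay before A2 and 108 after. The largest falls at 2 min were at 321, 149 and 24. Nucleotide 321 had 3.6, 0.872 and 0 RPM with BMH-21 against 16.8, 17.2 and 12.2 RPM with vehicle (log2 fold change -2.99 ± 0.51, limma adjusted p = 0.0113). Nucleotide 149 had 6.22, 1.74 and 1.71 RPM with BMH-21, against 24.3, 24.4 and 29.3 RPM with vehicle (-2.83 ± 0.38, adjusted p = 0.00904), and nucleotide 24 had a log2 fold change of -2.81 (adjusted p = 0.0076). The largest falls at 16 min were at 69, 75 and 145, with log2 fold changes of -4.11 ± 0.21, -4.00 ± 0.32 and -3.89 ± 0.29 (limma adjusted p = 0.000595, 0.00103 and 0.000934), and these 3 held in every setting run. Nucleotide 69 had 6.01, 7.59 and 9.49 RPM with BMH-21 at 16 min, against 155, 158 and 129.9 RPM with vehicle. Nucleotide 75 had 1.77, 0.379 and 0.949 RPM with BMH-21, against 25.002, 40.9 and 26.9 RPM with vehicle. These BMH-21 values at 75 are 5, 2 and 1 reads. Nucleotide 145 had 1, 1 and 1 reads with BMH-21, against 167, 63 and 25 with vehicle. At so few reads the size of the fall is uncertain. The log2 fold change ranged over the settings run from -5.77 to -2.23 at 145 and from -4.97 to -2.53 at 75. The 3 calls at 2 min were lost without vehicle replicate 2 or 3, and that at 321 also without vehicle replicate 1 (limma adjusted p = 0.0503).

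The ends of ITS1 lost signal as well. The first 30 positions kept 38.0% of their vehicle share at 2 min and 27.2% at 16 min, and the last 30 kept 29.5% and 15.5%. The last 30 positions took 4.23% ± 0.412 of the ITS1 signal with BMH-21 and 5.71% ± 0.0806 with vehicle at 2 min, and 2.69% ± 0.295 with BMH-21 and 3.97% ± 0.535 with vehicle at 16 min (SD, n = 3 each, no test run). In consecutive bins of 20 positions, all 3 BMH-21 libraries lay below all 3 vehicle libraries in every bin at both times. The share of the vehicle level left ranged over these bins from 24.1% at 121 to 140 to 73.3% at 201 to 220 at 2 min, and from 11.9% at 61 to 80 to 48.5% at 201 to 220 at 16 min. After the bin beside A2, the bins that kept most at 2 min were 101 to 120 with 57.6% and 261 to 280 with 51.0%, where 60% and 65% of the bases are G or C. The bin 81 to 100 is 70% G or C and kept 38.8%. At 16 min the bins 101 to 120 and 81 to 100 kept 31.6% and 31.5%. The bin 1 to 20, with 10% G or C, then kept 29.8% and the bin 261 to 280 kept 28.1%. A relation to G or C content was not tested.

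Scaling each library to its own ITS1 sum leaves only the pattern within the spacer. At 2 min 21 positions were then higher and 30 lower in limma, and at 16 min 20 higher and 52 lower. On that scale the rest of the gene moves against ITS1, so that 66.2% of all 35S positions were higher and 2.15% lower at 2 min, and 79.6% higher and 4.67% lower at 16 min. Within ITS1 11 positions were higher at both times, which is 52.4% of the set at 2 min and 55% of that at 16 min. They were 3, 103, 105, 113, 202, 205, 207, 208, 209, 210 and 271. At 2 min 9 of the 21 lay in the GCGC window and 7 in the A2 window, and at 16 min 4 and 7 of the 20. The GCGC window was drawn after its values were seen, so the counts inside it are a description and no test of clustering. The 7 positions lower at both times were 55, 136, 145, 215, 312, 321 and 357.

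Among the bases, C at the 3′ end was the one that took a larger share with BMH-21. Transcripts ending in C were 17.8%, 18.5% and 18.03% of the ITS1 signal in BMH-21-treated libraries at 2 min, against 14.5%, 14.1% and 14.1% in vehicle-treated libraries. At 16 min they were 17.8%, 21.3% and 17.9% with BMH-21, against 13.9%, 13.99% and 13.2% with vehicle. The groups did not overlap. The difference over both times was 4.59 percentage points (exact permutation test, p = 0.005, adjusted 0.0183), and it kept its direction and its side of the threshold in every setting run. By comparison C makes up 15.8% of the ITS1 bases. Nucleotides 105, 113 and 271 described above end in C, and without the GCGC window the difference was 2.15 points (exact p = 0.005). It was 1.83 points (exact p = 0.005) without the A2 and GCGC windows and 1.01 points (exact p = 0.015) when positions were weighted by log2(RPM + 1).

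For the other bases the differences over both times were smaller, and some turned or changed their call with the setting. Those ending in G were 22.0% ± 1.39 with BMH-21 and 24.2% ± 0.713 with vehicle at 2 min, and 20.8% ± 3.80 with BMH-21 and 24.97% ± 1.13 with vehicle at 16 min (SD, n = 3 each). The difference over both times was -3.19 points (exact p = 0.02, adjusted 0.0367), but it was -1.10 points (exact p = 0.41) without the A2 window and turned to 0.33 points when positions were weighted by log2(RPM + 1). It missed 0.05 without vehicle replicate 1 or 3 of 16 min (exact p = 0.06 each). Transcripts ending in U differed by -1.55 points (exact p = 0.065, adjusted 0.0894), and by -3.03 points (exact p = 0.01) with log2(RPM + 1) weights, -1.87 points (exact p = 0.045) without BMH-21 replicate 1 of 16 min and -2.002 points (exact p = 0.015) without BMH-21 replicate 3 of 16 min. Those ending in A differed by 0.16 points (exact p = 0.915), and by -2.92 points (exact p = 0.035) without the A2 window. The share of G in the bases that follow the 3′ end averaged 22.6% ± 0.556 with BMH-21 and 23.1% ± 0.126 with vehicle at 2 min, and 21.6% ± 0.669 with BMH-21 and 22.9% ± 0.486 with vehicle at 16 min. That difference of -0.90 points (exact p = 0.02, adjusted 0.0367) also turned, to 0.46 points (exact p = 0.005), with log2(RPM + 1) weights. The share of U in the bases before the 3′ end differed by -0.67 points (exact p = 0.175, adjusted 0.1925). It passed an unadjusted 0.05 at -2.28 points (exact p = 0.005) with log2(RPM + 1) weights, -1.96 points (exact p = 0.01) without the A2 window, -1.44 points (exact p = 0.025) without both windows and -0.85 points (exact p = 0.045) without vehicle replicate 2 of 16 min.

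**Figure D5:**
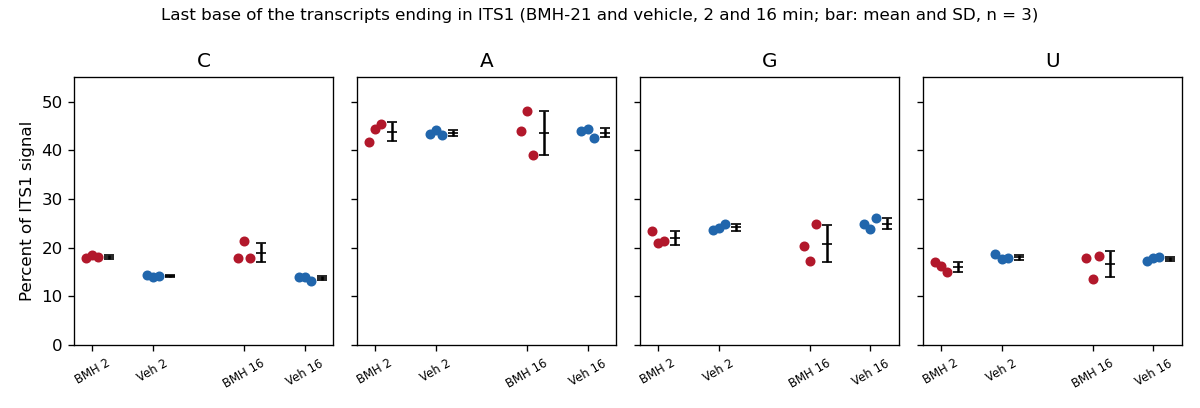
Percent of the ITS1 signal (vertical axis) from transcripts ending in C, A, G and U in each BMH-21-treated (BMH) and vehicle-treated (Veh) library at 2 and 16 min; bars are the mean and SD of 3 libraries. For C all BMH-21 libraries, from 17.8% to 21.3%, lie above all vehicle libraries, from 13.2% to 14.5%, whereas A overlaps.

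Signal after a G was high in both treatments. Positions after a G took 37.4% ± 1.44 of the ITS1 signal with BMH-21 and 37.8% ± 0.34 with vehicle at 2 min, and 32.6% ± 1.82 with BMH-21 and 36.0% ± 0.71 with vehicle at 16 min (SD, n = 3 each, no test run). By preceding and last base, the 21 GA positions averaged 23.3 RPM with BMH-21 and 67.2 RPM with vehicle at 2 min, and the 63 UU positions 3.27 RPM with BMH-21 and 8.98 RPM with vehicle. The 18 GC positions kept the largest part of their vehicle mean of all 16 pairs, 59.4% at 2 min and 50.2% at 16 min. The 19 GG positions kept 34.1% and 13.8%. These are averages over positions of 1 spacer and are given as a description, and nucleotides 103, 105, 113 and 115 in the GCGC stretch and 271 after A2 are themselves GC positions.

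Compared with the other spacers of the gene (ETS1, ITS2 and ETS2, 1143 positions together), ITS1 differed between the treatments in opposite directions at the 2 times. The log2 ratio of the ITS1 signal to theirs averaged -2.56 ± 0.05 with BMH-21 and -2.42 ± 0.05 with vehicle at 2 min, and all 3 BMH-21 libraries lay lower. The ratio averaged -2.12 ± 0.02 at 16 min with BMH-21 and -2.57 ± 0.07 with vehicle, and all 3 BMH-21 libraries lay higher (SD, n = 3 each). Over both times the difference was 0.16 (exact permutation test, p = 0.11, adjusted 0.1344), and whether the change itself differs between the times was not tested. Without the A2 window the difference was -0.25 at 2 min and 0.26 at 16 min, against -0.14 and 0.45 with it, and without the A2 and GCGC windows it was -0.33 and 0.16 (exact p = 0.1 at 2 min, the smallest possible, and 0.2 at 16 min).

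The change itself was larger at 16 min at a single called position. In a limma fit over all 12 libraries, the log2 fold change at 69 was lower by 2.79 ± 0.42 (SE) at 16 min than at 2 min (adjusted p = 0.031), and 1 of 359 ITS1 positions was called lower and 0 higher, against 0.148% and 0.133% over the gene. At an unadjusted p under 0.05 the ITS1 counts were 49 lower and 2 higher, against 622 lower and 668 higher of 6743 over the gene. In ITS1 edgeR called 4 lower and 0 higher (65 and 0 unadjusted). Nucleotide 69 had 88.7, 33.4 and 52.1 RPM with BMH-21 at 2 min, against 119, 154 and 136 RPM with vehicle, and its values at 16 min are given above. The call was lost without BMH-21 replicate 3 of 2 min, BMH-21 replicate 2 of 16 min, any vehicle library of 2 min, or vehicle replicate 1 or 3 of 16 min (limma adjusted p 0.0645 to 0.12). Scaling to the ITS1 sum (limma adjusted p = 0.0678) and the replicate block (0.17) lost it as well. Across 345 positions the log2 fold changes at the 2 times had a Spearman rho of 0.351, and of 0.431 over the 157 positions with a vehicle mean of at least 10 RPM. Between replicates the profiles within ITS1 had a rho of 0.835 to 0.902 with BMH-21 and 0.94 to 0.973 with vehicle at 2 min, and of 0.47 to 0.569 with BMH-21 and 0.627 to 0.882 with vehicle at 16 min.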

How the data were processed

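NET-seq of Pol I was measured in 12 libraries in biological triplicate. The authors trimmed the reads with cutadapt 1.12, aligned them with STAR 2.7.1a to assembly R64-1-1, assigned 5′ read ends, which mark RNA 3′ ends, to the 35S gene, and deposited RPM values scaled to each library's sum over that gene. Whether reads with the same molecular identifier were merged is not given in the sources used here. Their columns of replicate summaries, ratios, intervals and p-values were not used. All 12 library columns were read. The bases in the tables matched the reference at 6858 of 6858 positions. An untagged control is not analysed here.

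Whole reads were recovered by dividing by the smallest value, and 99.93% to 100% of values came out whole within 0.01. Read numbers and floors cover counting error only. No pair of libraries of the same treatment and time agreed within sampling noise.

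Positions with a mean of at least 1 RPM were tested in limma 3.58.1 (R 4.3.3) on log2(RPM + 1), within each time, with Benjamini-Hochberg adjustment over the gene and a threshold of 0.05. Fold changes on this scale understate the change of low positions. edgeR 4.0.16 (quasi-likelihood) tested the recovered reads as an alternative. Library measures were compared by exact permutation, two-sided, with 20 arrangements within a time and 400 over both times. Calculations used scipy 1.17.1, pandas 2.3.3 and numpy 2.4.6 under Python 3.11.15, and plots matplotlib 3.10.9. Base windows were the 10 bases up to the 3′ end for U and the 30 after it for G.

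Named positions were the 5 highest peaks per group (no higher value within 5 bases), the 3 most raised and lowered calls at each time, the 3 highest and lowest log2 fold changes with a mean of at least 20 RPM, the 3 bases on either side of A2, the first and last base of ITS1, and interaction calls. Other positions are named as members of a set or were chosen after their values were seen. The members, rules and lists were chosen with earlier results of these data known. Alternatives covered pseudocount, filter, scaling, tool, replicate block, libraries left out, the A2 boundary, and windows or ends left out.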

Additional observations from a re-analysis of the deposited data

Results flagged for a closer look

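The log2 ratio of the ITS1 signal to that of the other spacers changed by -0.14 with BMH-21 relative to vehicle at 2 min, with all 3 BMH-21 libraries lower, and by 0.45 at 16 min, with all 3 BMH-21 libraries higher. The opposite directions drew attention to it, and the difference between the times was not tested. Without the A2 window the changes were -0.25 and 0.26, and without the A2 and GCGC windows -0.33 and 0.16 (exact p = 0.2 at 16 min). At nucleotide 69 the limma log2 fold change at 16 min differed from that at 2 min by -2.79 (adjusted p = 0.031) with all 12 libraries. It was 1 call among 359 ITS1 positions, against 0.148% lower and 0.133% higher over the gene. The call was lost in 9 of 21 other settings, with the replicate block (limma adjusted p = 0.17) and scaling to the ITS1 sum (0.0678) among them.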

How the results depend on the processing

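At 2 min the count of lower ITS1 positions was 139 with a mean of at least 10 RPM, 165 with median ratio scaling and 30 with scaling to the ITS1 sum, and 0 to 317 with a library left out. The higher count was 1, 2 and 21 in those settings and 0 to 4 with a library left out. At 16 min the lower count was 69 with a pseudocount of 0.1, 65 with a mean of at least 10 RPM, 73 with edgeR and 52 with the ITS1 sum, which gave 20 higher, and 85 to 155 with a library left out (88 and 85 without vehicle replicates 1 and 3). The count for the change between times was 4 with a pseudocount of 0.1 or edgeR and 0 to 6 with a library left out.

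The deviations of same-numbered libraries correlated by -0.356, -0.098 and -0.133 at 2 min and by 0.088, 0.078 and 0.292 at 16 min. With 3 libraries per group these values cannot settle whether equal numbers pair the samples, and the main fits left them unpaired. With the replicate block, limma called 144 positions lower and 0 higher at 2 min, 134 lower at 16 min and 0 for the change between times, and the difference in G after the 3′ end had an exact p of 0.0625 (-0.90 points).

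With scaling to the ITS1 sum, the log2 fold changes at 105, 210, the last base before A2 and 260 turned to 1.195, 1.377, 0.485 and 0.066 at 2 min. Those at 105, 205, 208, 210, 211, 214 and 276 turned to 1.604, 1.863, 1.647, 1.693, 0.191, 0.147 and 0.318 at 16 min.

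Without the A2 window, the log2 ratio of signal after A2 to before it differed (BMH-21 minus vehicle) by 0.073 over both times and 0.033 at 2 min. With the boundary 5 bases earlier these differences were 0.264 and 0.189, and without the A2 and GCGC windows 0.216 and 0.161. Over both times the difference was -0.148 with the boundary 5 bases later (exact p = 0.055), and -0.082 without 30 positions at each end (0.33). It was -0.047 without the GCGC window (0.55), and -0.197 to -0.087 with a library left out (0.005 to 0.145). Settings that leave out the GCGC window were added after seeing the data. The share of the 10 strongest positions differed by -0.038 points over both times and -1.94 at 16 min without the A2 window, and by -1.64 and -3.71 without both windows.

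With log2(RPM + 1) weights, G at the 3′ end differed by 0.33 points (0.30 at 2 min, 0.36 at 16 min), G after it by 0.46 (0.37 and 0.54), U at it by -3.03 and U before it by -2.28. Without the A2 window, G at the 3′ end differed by -1.10, A by -2.92 (exact p = 0.035), G after it by -0.25 (0 at 2 min) and U before it by -1.96. Without both windows G at the 3′ end differed by -0.32 (0.068 at 2 min), G after it by -0.83 and U before it by -1.44. With 15 bases after the 3′ end, G differed by -0.28 (0.39 at 2 min). With a library left out, G at the 3′ end differed by -4.19 to -2.30 points, U at it by -2.00 to -0.79 and U before it by -0.89 to -0.37. The cause of these changes was not tested.

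The log2 fold change over the whole gene had a median of -0.26 at 2 min with the deposited scaling, -0.04 with the median ratio and 1.15 with the ITS1 sum. Depth limits single positions most at 16 min, where 1 read was worth up to 0.949 RPM, and the median lowered position there rested on 4 reads per BMH-21 library.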
